A study of Homo sapiens with 4 samples.

Results

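MHC class I antigen presentation genes were examined in T24 cells, an established human bladder cancer line, with and without the catalytic domain of the DNA demethylase TET1 (TET1-CD). The genes were selected by symbol, namely HLA-B, HLA-C, HLA-E, HLA-F, B2M, TAP1, TAP2, TAPBP and NLRC5. These 9 symbols corresponded to 10 of the 57747 genes on primary chromosomes, because TAP2 is listed under 2 gene identifiers. RNAseq had been performed on 2 control libraries, which carry the empty vector (EV), and on 2 libraries of cells labelled as expressing TET1-CD. All 4 libraries share the source label T24_induced and growth in RPMI with FCS. In the study, TET1-CD was delivered as a FLAG-tagged lentiviral construct with puromycin selection, and it is not stated whether the cells were clonal or whether replicates were separate cultures. The p-values below therefore measure only the spread between these libraries, which may be technical. Each library held between 17442143 and 20295266 estimated fragments.

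MHC class I molecules display peptides from proteins made inside the cell to CD8+ T cells. Each molecule pairs a polymorphic heavy chain (HLA-B and HLA-C) or a less variable one (HLA-E and HLA-F) with the invariant light chain beta-2-microglobulin, which B2M encodes. Peptides are cut by the proteasome, pumped into the endoplasmic reticulum by the TAP1/TAP2 transporter and loaded onto the heavy chain with the help of tapasin, the product of TAPBP. NLRC5 is the transactivator of these genes and acts at their promoters together with factors such as RFX, and interferons raise the whole pathway through STAT and IRF factors. Reduced class I expression is a known route by which tumour cells, bladder carcinoma included, evade T cells.

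In TET1-CD cells, HLA-E, HLA-B and TAPBP were lower and TAP1 and NLRC5 were higher than in control cells, with changes of between -19.2% and 34.4%. The other members, B2M, HLA-C, HLA-F and both TAP2 genes, did not pass the test. Levels are given as CPM, the counts scaled to library size by TMM, and errors of fold changes as standard errors (SE). Genes were called at an adjusted p under 0.05 by edgeR's quasi-likelihood test, with Benjamini-Hochberg adjustment over all 14560 genes tested. All 10 member genes had enough counts for this test, and 5 of them were called, 3 lower and 2 higher. Among all genes tested, 19.7% were called, 9.62% lower and 10.1% higher. The median log2 fold change was -0.16 over the members and 0.00 over all genes tested. DESeq2 called 3 of the 10 members (HLA-E, TAP1 and NLRC5) and 12.0% of all genes. No member passed a fold change of 2 together with an adjusted p under 0.05 by edgeR, whereas 3.76% of all genes did, and none passed that fold change at an unadjusted p either. The libraries of the groups did not overlap for 7 of the 10 members, against 61.0% of all genes tested. TET1-CD lay below control for 4 of them and above for 3, against 30.2% and 30.8% of all genes.

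**Figure D1:**
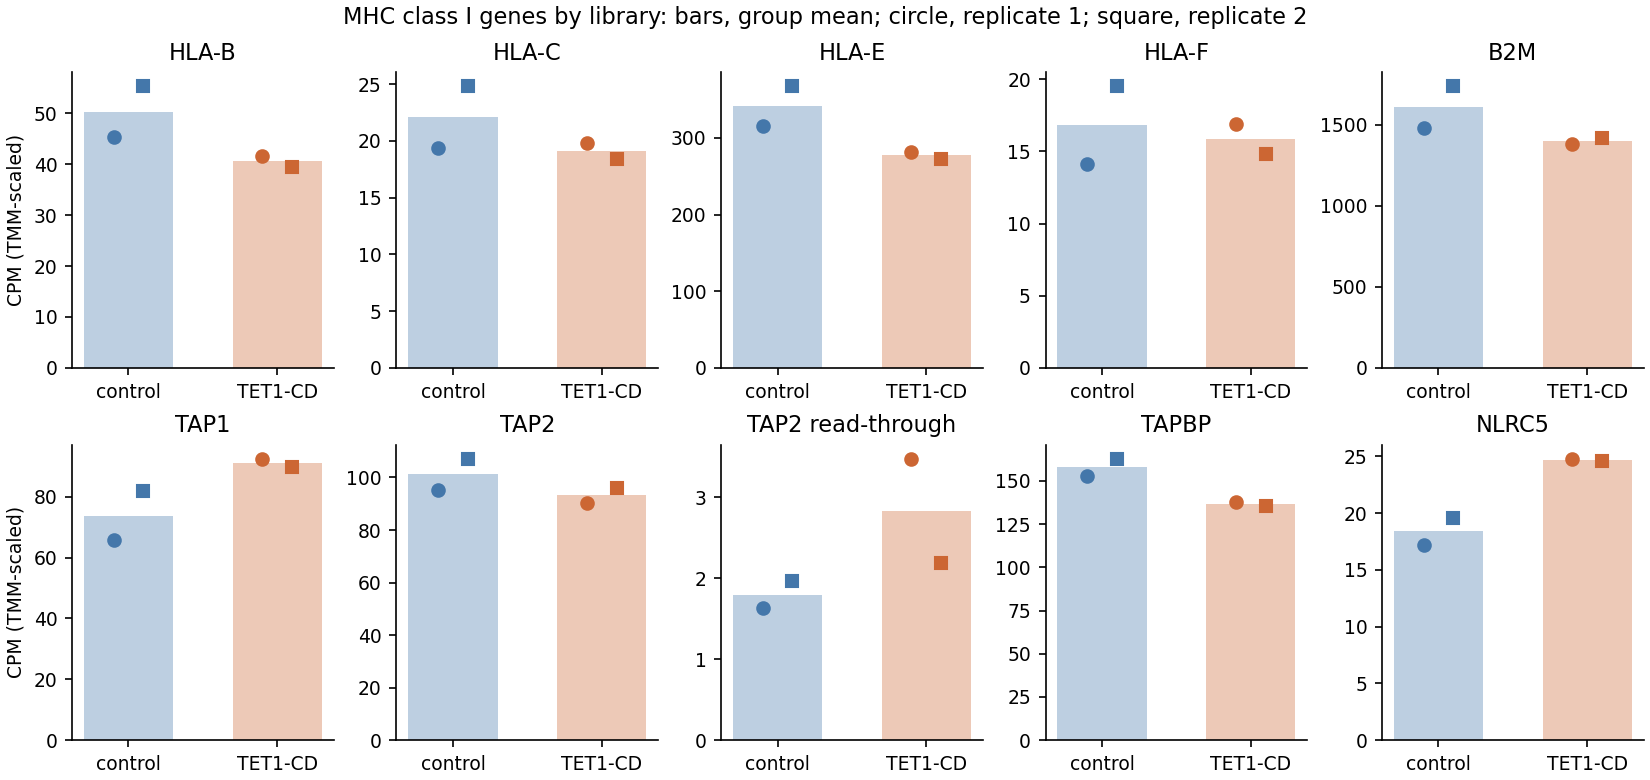
CPM (counts scaled to library size by TMM) of the 10 member genes in each library, with a linear axis from 0 in each panel. Bars give the group mean of 2 libraries, circles replicate 1 and squares replicate 2. For HLA-B, HLA-E, B2M and TAPBP both TET1-CD libraries lie below both control libraries, and for TAP1, NLRC5 and the TAP2 read-through gene both lie above. Control replicate 2 lies above control replicate 1 in all 10 panels.

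The control libraries were not alike for these genes. All 10 members had a higher CPM in control replicate 2 than in control replicate 1, by 0.09 to 0.47 on the log2 scale with a median of 0.25. Among all genes tested, 50.7% were higher in that replicate. The TET1-CD libraries were closer to each other for the 9 abundant members, and 2 of the 10 members were higher in TET1-CD replicate 2. Without control replicate 1, edgeR called 7 members, with HLA-C, B2M and the main TAP2 gene added and TAP1 lost, and 25.3% of all genes. Without control replicate 2 it called 4, with HLA-B lost, and 24.1% of all genes. With either TET1-CD library left out, 0 members were called by edgeR, and the calls over all genes fell as well, to 6.13% without TET1-CD replicate 1 and 6.87% without TET1-CD replicate 2. An unadjusted p under 0.05 was reached by 5 members and 19.7% of all genes in the former fit, and by 4 members and 21.1% of all genes in the latter. The difference between the control libraries was thus similar in size to the differences between the groups, which ran from 0.08 to 0.65 without regard to sign. The replicate dispersion of TAP1, relative to that of genes of like abundance, was at percentile 95.5 of all genes tested, that of HLA-E at 91.1 and that of HLA-B at 91.8, while TAPBP (51.0) and NLRC5 (47.2) lay near the middle. Mitochondrial genes took 2.91% and 3.39% of the counts in control and 2.5% and 2.73% in TET1-CD cells. As for the members, control replicate 2 lay above control replicate 1, and its mitochondrial share was the highest of the 4 libraries. The part of this share in the results was not tested.

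**Figure D2:**
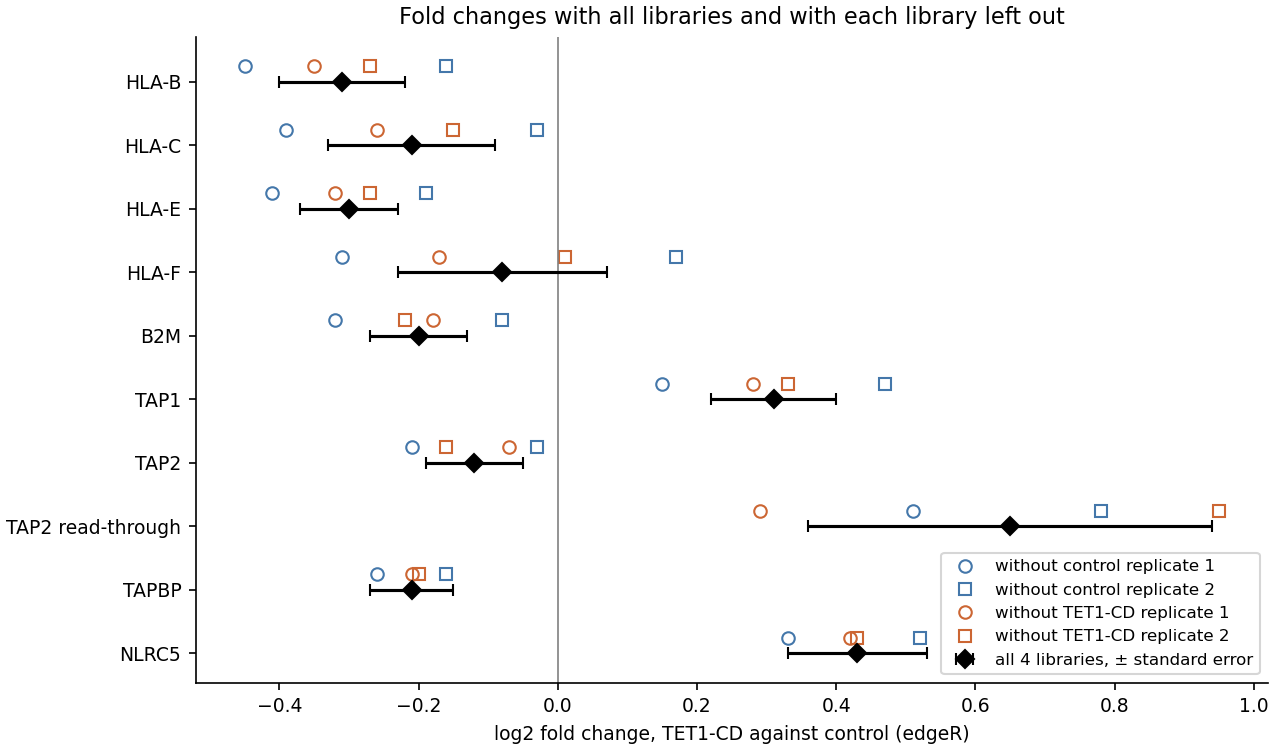
Log2 fold changes of the 10 member genes by edgeR (TET1-CD against control). Diamonds give the fit to all 4 libraries with bars of 1 standard error, open blue symbols the fits without a control library and open orange symbols the fits without a TET1-CD library, circles for replicate 1 and squares for replicate 2. Apart from HLA-F, which runs from -0.31 to 0.17, each gene keeps its sign in all 4 fits.

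The promoters of members on either side of zero are shown because the regulators discussed below are known to act there. Windows of 300 bases, from 250 before to 50 after the annotated start, were taken from RefSeq on GRCh38.p14, where 7 of the 9 symbols matched, all but HLA-E and NLRC5. They are printed 5′ to 3′ in the direction of the gene, for HLA-B (chr6:31357130-31357429, minus strand), B2M (chr15:44711267-44711566, plus strand), TAPBP (chr6:33314029-33314328, minus strand) and TAP1 (chr6:32853655-32853954, minus strand). Capitals mark matches to GAAA followed after 2 further bases by GAAA, the core of interferon-response sites bound by IRF factors, and to CCAAT, the NF-Y box, on either strand.
HLA-B: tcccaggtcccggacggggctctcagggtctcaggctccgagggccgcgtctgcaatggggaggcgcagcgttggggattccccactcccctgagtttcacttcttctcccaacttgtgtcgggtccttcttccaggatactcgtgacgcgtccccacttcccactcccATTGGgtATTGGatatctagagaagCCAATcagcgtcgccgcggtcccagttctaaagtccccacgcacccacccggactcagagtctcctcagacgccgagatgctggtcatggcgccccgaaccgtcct
B2M: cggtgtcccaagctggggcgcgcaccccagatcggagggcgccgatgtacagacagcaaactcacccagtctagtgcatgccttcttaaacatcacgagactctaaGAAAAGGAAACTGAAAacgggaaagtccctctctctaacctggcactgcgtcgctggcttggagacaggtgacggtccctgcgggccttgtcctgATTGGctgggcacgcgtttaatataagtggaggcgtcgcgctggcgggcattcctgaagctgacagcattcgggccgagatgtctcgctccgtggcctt
TAPBP: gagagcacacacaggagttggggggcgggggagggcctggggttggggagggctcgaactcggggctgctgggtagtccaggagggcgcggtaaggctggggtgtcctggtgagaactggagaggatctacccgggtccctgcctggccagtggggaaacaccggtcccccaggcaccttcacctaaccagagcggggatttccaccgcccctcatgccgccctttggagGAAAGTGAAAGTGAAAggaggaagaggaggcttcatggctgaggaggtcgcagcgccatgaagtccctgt
TAP1: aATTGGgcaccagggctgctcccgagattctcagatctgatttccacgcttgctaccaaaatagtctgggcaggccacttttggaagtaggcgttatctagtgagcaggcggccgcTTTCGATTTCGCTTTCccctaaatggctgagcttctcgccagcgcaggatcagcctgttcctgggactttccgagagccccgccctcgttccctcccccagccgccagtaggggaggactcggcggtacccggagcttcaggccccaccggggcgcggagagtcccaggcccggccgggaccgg

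The interferon-response core was matched in the windows of B2M, TAPBP, TAP1, TAP2 and HLA-F, and in 3.57% of all 35116 windows. TAP1 has a second window in the table (chr6:32852712-32853011), which held 11 CpG sites and no match to any of the motifs, and the values given here for TAP1 are those of the printed window. In TAP1 the matches overlapped each other and ran from base -134 to base -119 relative to the start, in B2M from -144 to -129 and in TAPBP from -20 to -5. HLA-B and HLA-C had no match to these letters. Only exact matches were counted, so this does not show that they lack an interferon-response site. CCAAT was matched 3 times in HLA-B and 4 times in HLA-C, and 34.6% of all windows hold it at least once. An NF-kB motif was matched in HLA-B, HLA-C, TAP1, TAPBP and B2M and in 5.91% of all windows. GGACC was matched in all 7 symbols and in 46.3% of windows, and TGACGNNA in none of the 7 and in 7.55% of windows. The limit of exact matches holds for these motifs too. The HLA-B window, for example, holds TGACGCGT, which departs from TGACGNNA only in its last base. TET enzymes act on 5-methylcytosine, and the letters do not show whether a CpG site is methylated in these cells. The number of CpG sites was 12 in the TAPBP window, 22 each in those of HLA-B, B2M and TAP1, and 24 in that of TAP2. The median over all windows was 14. These are matches of letters in the reference genome. The printed windows of TAP1, TAPBP and B2M each hold both the interferon-response core and the NF-kB motif.

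The heavy chains are described first. HLA-E, which presents signal peptides of other class I chains to NK receptors, spans chr6:30457244-30461982 of GRCh37 (plus strand). Its CPM was 314.8 and 367.1 in control and 282.0 and 272.1 in TET1-CD cells. Both TET1-CD libraries were below both control libraries. The log2 fold change was -0.30 (SE 0.07, adjusted p = 0.0165 by edgeR, and 0.00274 from DESeq2), which is -18.7%. Without control replicate 2 the value was -0.19 (adjusted p = 0.00711 by edgeR), and HLA-E was not called without TET1-CD replicate 1 (adjusted p = 0.119 by edgeR) or TET1-CD replicate 2 (adjusted p = 0.172 by edgeR).

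HLA-B, on chromosome 6 from 31321649 to 31324965 on the minus strand, presents peptides to CD8+ T cells. It had a CPM of 45.4 and 55.3 in control and of 41.7 and 39.5 in TET1-CD cells, so that the groups did not overlap. Its log2 fold change was -0.31 (SE 0.09, adjusted p = 0.0438 by edgeR), and DESeq2 did not call it (adjusted p = 0.0806). Without control replicate 2 the value was -0.16 (adjusted p = 0.113 by edgeR). HLA-C, which lies from 31236526 to 31239907 and also engages NK receptors, had a CPM of 19.4 and 24.8 in control and of 19.8 and 18.4 in TET1-CD cells. Here the groups overlapped, since control replicate 1 lay between the TET1-CD libraries (log2 fold change -0.21, SE 0.12, adjusted p = 0.268 by edgeR). HLA-F, from 29690552 to 29706305 on the plus strand, had a CPM of 14.1 and 19.5 against 16.9 and 14.8. Both TET1-CD values of HLA-F fell between the control values (log2 fold change -0.08, adjusted p = 0.757 by edgeR).

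Heavy chain genes are near-identical over parts of their exons, and the estimated counts may be split between them. Summed over HLA-B, HLA-C, HLA-E and HLA-F, a sum that the division of fragments among these 4 cannot change, although fragments could still be shared with other class I genes, the CPM was 393.8 and 466.7 in control and 360.4 and 344.8 in TET1-CD cells. The group means were 430.2 ± 51.5 (SD, n = 2) and 352.6 ± 11.1 (SD, n = 2), a log2 ratio of -0.29 with no test. Without control replicate 2 the ratio was -0.16. HLA-E took between 78.2% and 80.0% of these counts in each library. The share was therefore stable while the sum differed.

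B2M, the light chain gene on chromosome 15 from 45003675 to 45011075, was the most abundant member. It had a CPM of 1479.9 and 1736.5 in control and of 1379.1 and 1420.1 in TET1-CD cells. All TET1-CD values were below the control values, but the difference did not pass the test (log2 fold change -0.20, SE 0.07, adjusted p = 0.0868 by edgeR, and 0.0526 from DESeq2). In FPKM, which is scaled to transcript length, B2M exceeded the summed heavy chains 11.6-fold and 11.4-fold in control and 11.7-fold and 12.8-fold in TET1-CD cells.

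Of the transporter subunits, TAP1 rose and TAP2 did not pass the test. TAP1, on chromosome 6 from 32812986 to 32821755 on the minus strand, had a CPM of 65.7 and 81.8 in control and of 92.5 and 89.6 in TET1-CD cells. Both TET1-CD libraries were above both control libraries, with a log2 fold change of 0.31 (SE 0.09, adjusted p = 0.0388 by edgeR, and 0.0394 from DESeq2). TAP2, from 32789610 to 32806557, had a CPM of 95.1 and 107.2 against 90.2 and 96.1, and these groups overlapped (log2 fold change -0.12, SE 0.07, adjusted p = 0.274 by edgeR). The ratio of TAP1 to TAP2 within a library was 0.691 and 0.763 in control and 1.03 and 0.933 in TET1-CD cells. It was higher in both TET1-CD libraries, and 2 libraries a group allow no exact permutation p below 0.333. Without control replicate 1, the log2 fold change of TAP1 was 0.15 (adjusted p = 0.0719 by edgeR), and without control replicate 2 it was 0.47.

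A second gene carries the symbol TAP2 (ENSG00000250264, from 32781544 to 32806599). Of the 2705 exonic bases of this read-through gene, 2023 are shared with TAP2 and 599 with HLA-DOB, so its counts are uncertain. It had 33 and 34 counts in control and 61 and 43 in TET1-CD cells (log2 fold change 0.65, SE 0.29, adjusted p = 0.153 by edgeR). When both identifiers were summed, the counts were 1958, 1888, 1643 and 1926, and the groups overlapped.

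The estimated counts of TAP1 were also compared by transcript. The principal transcript ENST00000354258 had a CPM of 63.2 and 73.8 in control and of 73.4 and 76.6 in TET1-CD cells, a log2 fold change of 0.13 (SE 0.10 by edgeR on transcripts). The groups overlapped for this transcript. ENST00000425148, in contrast, went from 41 and 124 estimated counts to 325 and 247, and from a CPM of 2.03 and 7.19 to one of 18.5 and 12.6. Its log2 fold change was 1.76 (SE 0.67). The test on single transcripts, which was added after these counts were seen, called 1 of 43198 transcripts, and it did not call either TAP1 transcript (adjusted p = 0.736 and 0.467 by edgeR). How the estimation divided fragments between transcripts cannot be seen from the deposited values.

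**Figure D3:**
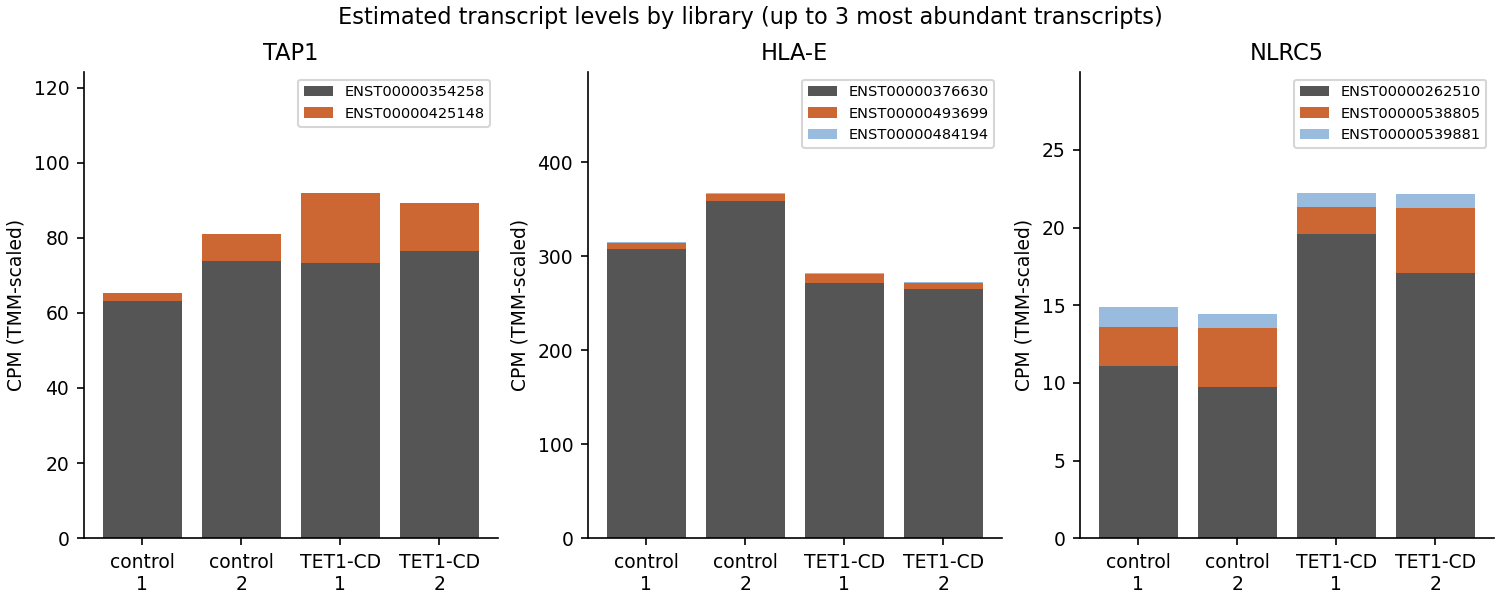
Estimated CPM of the most abundant transcripts of TAP1, HLA-E and NLRC5 in each library, stacked from 0. In TAP1 the principal transcript differs little between groups while ENST00000425148 is larger in both TET1-CD libraries, in HLA-E 1 transcript holds between 96.3% and 97.6% of the counts, and in NLRC5 ENST00000262510 is larger in both TET1-CD libraries.

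TAP1 is divergently paired with PSMB9, an immunoproteasome subunit gene. In RefSeq their starts lie 487 bases apart on GRCh38.p14, and both genes are known targets of interferon. PSMB9 had a CPM of 26.9 and 31.4 in control and of 23.8 and 24.5 in TET1-CD cells (log2 fold change -0.27, SE 0.10, adjusted p = 0.0778 by edgeR). The ratio of TAP1 to PSMB9 was 2.44 and 2.61 in control and 3.89 and 3.66 in TET1-CD cells. It varied little between replicates and was higher in both TET1-CD libraries. In GENCODE release 44, TAP1 shares no exonic bases with PSMB9, and shares 672 with the antisense gene PSMB8-AS1, which had between 43 and 58 counts. In the coordinates deposited with the counts, however, PSMB9 spans 32811913 to 32827362 on the plus strand and encloses TAP1. Whether the 2 genes share exonic bases in that annotation was not tested.

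TAPBP, on chromosome 6 from 33267471 to 33282164, had a CPM of 152.7 and 162.9 in control and of 137.5 and 135.7 in TET1-CD cells. Its replicates were the closest among the members that fell. The log2 fold change was -0.21 (SE 0.06, adjusted p = 0.028 by edgeR), and with DESeq2 the adjusted p was 0.0537.

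NLRC5, the class I transactivator, lies on chromosome 16 from 57023397 to 57117443. It had a CPM of 17.2 and 19.6 in control and of 24.8 and 24.6 in TET1-CD cells. The groups did not overlap, and the log2 fold change was 0.43 (SE 0.10, adjusted p = 0.0129 by edgeR, and 0.0436 from DESeq2), or 1.34-fold. Its longest abundant transcript, ENST00000262510, had 225 and 168 counts in control and 343 and 335 in TET1-CD cells (log2 fold change 0.82, SE 0.15, adjusted p = 0.258 by edgeR on transcripts). The ratio of NLRC5 to HLA-E, one of the genes it is known to activate, was 0.0548 and 0.0534 in control and 0.0879 and 0.0906 in TET1-CD cells.

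Levels of different genes were compared in FPKM summed over transcripts. In control cells the order was B2M (2310.2), HLA-E (136.4), TAPBP (52.4), HLA-B (33.7), TAP1 (25.4), TAP2 (22.8), HLA-C (16.6), HLA-F (13.9) and NLRC5 (4.72), as means of 2 libraries. The values of TAP1 and TAP2 overlapped, as did those of HLA-C and HLA-F, so the order within these pairs is not resolved. In TET1-CD cells TAP1 had 33.7 and 32.0 FPKM and stood above HLA-B, with 28.9 and 28.2. HLA-C and HLA-F again overlapped there.

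Of the members, 8 lie in a stretch of chromosome 6 from 29690552 to 33282164, in which 107 genes were tested. Among the 99 other genes of this stretch, 49 had positive and 50 negative log2 fold changes, and 14 (14.1%) were called by edgeR, 7 in each direction. The 5 genes with the most similar mean profile over the 4 libraries were CBY1, GMPPA, FIZ1, DDT and IER3, at a root mean square distance of 0.00438 to 0.0142 on the log2 scale. This mean profile (-0.118, 0.132, 0.039 and -0.053) averages members that rose with members that fell, and follows the difference between the control libraries more than that between groups.

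The genes that supply and trim peptides were then examined. All 5 immunoproteasome genes had negative log2 fold changes (median -0.27), as did 7254 of the 14560 genes tested. The catalytic subunits among them replace the standard ones under interferon. Of the 5 genes, 2 were called, both lower (40.0%, against 19.7% of all genes in either direction). PSME1, an activator subunit, had a CPM of 132.1 and 154.2 in control and of 106.3 and 109.8 in TET1-CD cells (log2 fold change -0.40, SE 0.07, adjusted p = 0.00452 by edgeR). PSMB10 had a log2 fold change of -0.41 (adjusted p = 0.0238 by edgeR), which was -0.22 without control replicate 2, and PSMB8 one of -0.24 (adjusted p = 0.0745 by edgeR). All 5 were also higher in control replicate 2 than in control replicate 1, as the members and the 3 standard subunits below were. For the standard catalytic subunits PSMB5, PSMB6 and PSMB7, the values were 0.14, 0.00 and 0.14. Neither edgeR nor DESeq2 called any of the 3. By edgeR, 2 had an unadjusted p under 0.05, as 33.3% of all genes did.

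Among 7 genes of peptide trimming and folding, 3 were called, all lower (42.9%, against 19.7% of all genes in either direction). Log2 fold changes were positive for 3 of the 7 and negative for 4. ERAP2, an aminopeptidase of the endoplasmic reticulum, had a CPM of 21.3 and 20.6 in control and of 13.7 and 14.6 in TET1-CD cells (log2 fold change -0.56, SE 0.10, adjusted p = 0.00333 by edgeR). Its paralog ERAP1 had a log2 fold change of -0.25 (adjusted p = 0.0125 by edgeR), and TAPBPL, a tapasin-related editor of peptides, one of -0.47 (adjusted p = 0.0209 by edgeR), which was -0.30 and not called without control replicate 2 (adjusted p = 0.0529 by edgeR). The chaperone genes CALR and PDIA3, of general use in the endoplasmic reticulum, had values of 0.16 and 0.14 and were not called. In a list of other class I and class I-like chains, 4 of 6 genes were tested. All 4 had negative log2 fold changes, as did 7254 of the 14560 genes tested. Of the 4, 1 was called, against 19.7% of all genes in either direction. MR1, which presents microbial metabolites, had a log2 fold change of -0.32 (adjusted p = 0.0612 by edgeR) and HFE, an iron regulator, one of -0.27 (adjusted p = 0.144 by edgeR).

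**Figure D4:**
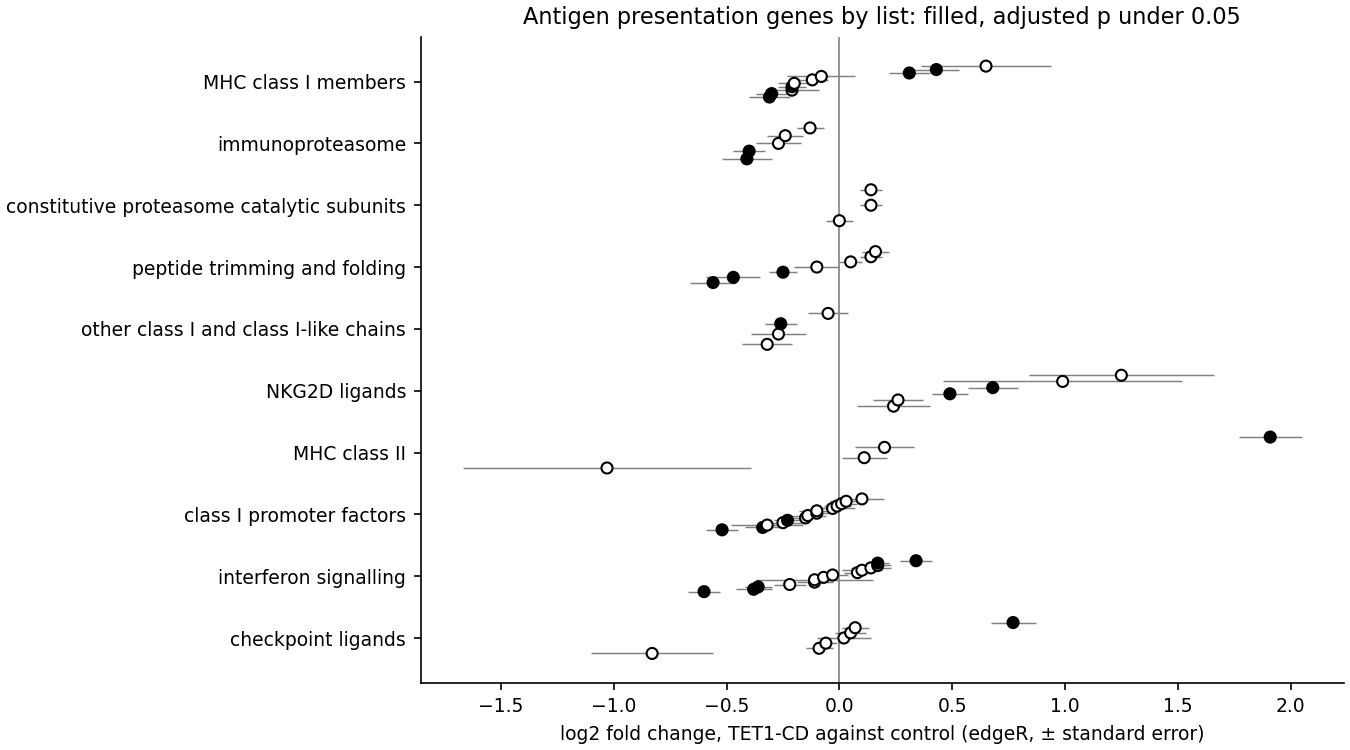
Log2 fold changes (TET1-CD against control, edgeR, bars of 1 standard error) of the tested genes in the member list and in 9 related lists. Filled circles mark an adjusted p under 0.05. Immunoproteasome genes all lie below 0, NKG2D ligands all lie above 0, and CD74 has the largest value, 1.91.

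Regulators of the pathway did not move together. Of 14 factors that act at class I promoters, 3 were called, all lower (21.4%, close to the 19.7% of all genes). IRF1, which binds interferon-response sites of the kind printed above, had a CPM of 42.0 and 42.7 in control and of 30.0 and 28.9 in TET1-CD cells (log2 fold change -0.52, SE 0.07, adjusted p = 0.00113 by edgeR). IRF1 differed little between the control libraries, unlike the members. IRF2 (-0.34, adjusted p = 0.0159 by edgeR) and SP1 (-0.23, adjusted p = 0.0327 by edgeR) also fell, while RFX5, a partner of NLRC5, had a value of 0.03. DESeq2 called only IRF1 in this list. Of 14 interferon signalling genes, 3 fell and 2 rose by edgeR (35.7% called, against 19.7% of all genes). STAT2 (-0.60, adjusted p = 0.000357) and the receptor gene IFNAR1 (-0.36, adjusted p = 0.00215) were among those that were lower. SOCS3, a feedback inhibitor (0.34, adjusted p = 0.00848), and STAT3 (0.17, adjusted p = 0.0471) were higher, and STAT3 was lost with DESeq2 (adjusted p = 0.102).

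Genes that are read by the same lymphocytes were compared last. All 6 tested ligands of the activating NK receptor NKG2D had positive log2 fold changes, with a median of 0.59. Of these, 2 were called, both higher (33.3%, against 19.7% of all genes in either direction). ULBP2 had a CPM of 13.7 and 13.4 in control and of 23.4 and 20.3 in TET1-CD cells (log2 fold change 0.68, SE 0.11, adjusted p = 0.00195 by edgeR). MICB, which lies beside the class I genes, had a log2 fold change of 0.49 (adjusted p = 0.00309 by edgeR), and ULBP1, with between 9 and 23 counts, one of 1.25 (adjusted p = 0.0578 by edgeR). CD274, which encodes the checkpoint ligand PD-L1, had a CPM of 20.8 and 23.1 in control and of 40.0 and 34.8 in TET1-CD cells (log2 fold change 0.77, SE 0.10, adjusted p = 0.000578 by edgeR). Of 7 tested checkpoint ligands, edgeR called this 1 (14.3%, against 19.7% of all genes). LGALS9 had a log2 fold change of -0.83 (adjusted p = 0.0567 by edgeR) and CD276 one of -0.09.

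Of 13 MHC class II genes, 4 were tested and 1 was called, against 19.7% of all genes in either direction. CD74, the invariant chain, had 88 and 97 counts in control and 326 and 363 in TET1-CD cells, a log2 fold change of 1.91 (SE 0.14, adjusted p = 1.45e-05 by edgeR). CIITA, the class II transactivator, was at 5 and 5 counts against 1 and 2, too low for a test. HLA-DRA and HLA-DQA1 were at 0 counts in all 4 libraries, which allows up to 3 counts in each. HLA-DPA1 had a log2 fold change of 0.20 (adjusted p = 0.335 by edgeR) and HLA-DMA one of -1.03 (adjusted p = 0.294 by edgeR). Of the genes named in these lists, MICB, ULBP2, CD274, CD74, IRF1 and STAT2 were called in each of the 4 fits that left out 1 library, and the other called genes were lost in at least 1 of them.

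The identity of the libraries was checked by TET1, which had 111 and 83 counts in control and 2939 and 3310 in TET1-CD cells. Of 13 urothelial and T24 markers, KRT7, KRT8, KRT18 and VIM were abundant in each library, whereas KRT5, UPK1A, UPK1B and UPK3A were at or under 3 counts in all 4. The labelled bladder cancer cells thus showed little or none of these 4 markers of urothelial layers. Other urothelial markers of the list were detected. UPK3B had 20 and 16 counts in control and 38 and 27 in TET1-CD cells, PPARG had between 363 and 461, and UPK2 between 1 and 6. Of 12 leukocyte markers, 9 were at or under 3 counts in every library, PTPRC among them. The list summed to 46 and 54 counts in control and to 20 and 28 in TET1-CD cells, and ITGAM (22 and 29 against 3 and 8 counts) was called by edgeR (log2 fold change -2.19, adjusted p = 0.0163), though in 1 of the 4 fits that left out a library. Of the 8 urothelial and T24 markers tested, edgeR called 5 (62.5%, against 19.7% of all genes). Higher were GATA3 (log2 fold change 1.25, adjusted p = 0.016 by edgeR), KRT19 (1.01, adjusted p = 0.00265 by edgeR), KRT7 (0.34) and KRT18 (0.18). VIM (-0.39) was lower. DESeq2 did not call GATA3 (adjusted p = 0.0882), which had 19 counts in each control library and 46 and 44 in TET1-CD cells. The part of these markers in the results for the members was not tested. Fewer cells with a gene and less RNA per cell cannot be told apart in these bulk libraries.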

How the data were processed

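Poly(A) or rRNA-depleted RNA of 4 T24 libraries was sequenced on an Illumina HiSeq instrument. The submitters' processing notes name hg19, cutadapt 1.9.1, HISAT2 2.0.1, HTSeq 0.6.1 and DESeq2. The tool that estimated transcript levels is not given in the sources used here, and no strand setting is stated. The authors deposited estimated counts and FPKM values for 195700 transcripts. Estimated counts were summed per gene identifier on primary chromosomes and rounded, and FPKM values were summed. No row of a member lay on another contig. Groups were compared with edgeR 4.0.16 (glmQLFTest, TMM, filterByExpr) in R 4.3.3, and DESeq2 1.42.0, which the study used with a fold change of 2, served as an alternative. The SE was taken as the absolute log2 fold change over the root of the F statistic. The test was tried on simulated data in which far fewer genes were changed than were called here. There it missed most changes of the size seen in the members. Among the genes it called, unchanged ones took a larger share than the threshold allows, mostly genes with a dispersion far above the trend. At an unadjusted p under 0.05, unchanged genes passed at about the nominal rate. Because fewer genes were changed there, the missed and false shares need not hold for these data. Members and lists were chosen with earlier results of these data known. Named genes were the members, TET1, and from each list other than the markers the 3 genes with the smallest p and, where 5 or fewer were called, all called, beside the 5 genes of most similar profile among those with a mean CPM over 5. PSMB9, CALR, PDIA3, RFX5, CIITA, HLA-DRA, HLA-DQA1, the named markers and single transcripts were added after their values were seen. The values of 2 listed genes are not reported here. Precision is limited by 2 libraries a group. The other alternatives were limma-voom 3.58.1, a replicate block, scaling by RLE or by library size alone, a filter of 10 counts in each library or none, all rows of a symbol summed, the ratio of mean FPKM with a pseudocount of 0.1, and the omission of each library.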

Additional observations from a re-analysis of the deposited data

How the results depend on the processing

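DESeq2 called 3 members and 1741 genes in all, against 5 and 2865 with edgeR, and HLA-B and TAPBP were lost. With a fold change of 2 added, 548 genes and 0 members passed, and 0 members did so at an unadjusted p. With each library left out, edgeR called between 926 and 3788 genes and between 0 and 7 members, and the log2 ratio of the heavy chain sum was between -0.40 and -0.16. HLA-F reversed in 2 of these fits, within a range of -0.31 to 0.17. RLE normalization, library size only, limma-voom, the filter of 10 counts and the sum over all rows of a symbol each called 5 members. These settings called between 19.7% and 20.3% of all genes tested. With no filter, 6 members and 14.4% of all genes tested were called. The replicate numbers do not pair the samples by any label, and the deviations of same-numbered libraries had a correlation of 0.026 across all genes tested and of 0.192 across those above the median CPM. With a replicate block, 3246 genes (22.3% of those tested) and 6 members were called, B2M being added (adjusted p = 0.0181 from edgeR). This block also called 4 of 5 tested immunoproteasome genes, 2 of 4 other class I chains and 2 of 7 checkpoint ligands. The most abundant transcript of each member, tested alone after the data were seen, kept the direction of its gene in all 10 cases and was called in none, in a test that called 1 of 43198 transcripts. The ratio of mean FPKM kept the direction of all 10 members. The causes of these changes were not tested. With 2 libraries a group, a member that was not called may still differ, and a call may be less reliable than its adjusted p implies. The dispersion over the trend was at percentile 95.5 of genes tested for TAP1 and at 47.2 for NLRC5. Unchanged genes called in simulated data lay mostly at the highest dispersions, but that simulation took its dispersions from these same libraries. Whether the call of TAP1 is less reliable than that of NLRC5 was not tested.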
